A study of Mirounga angustirostris with 8 samples.

Results

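The creatine kinase and adenylate system buffers ATP in muscle, and 10 of its genes were examined in the longissimus dorsi of adult female northern elephant seals (NES). The genes were taken by symbol: the creatine kinases CKM, CKMT2 and CKB, the creatine supply genes GATM, GAMT and SLC6A8, the adenylate kinase AK1, and the purine nucleotide cycle genes AMPD1, AMPD3 and ADSSL1. Of these, 9 had a row in the table of 24342 named genes, and all 9 were among the 14315 genes with enough reads to test. SLC6A8, the creatine transporter, was not analysed here.

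RNA was sequenced in 8 libraries from 7 wild seals hauled out on land for the molt, a period of fasting and reduced activity. The 4 post-molt libraries (labelled late molt, seals 4448, 5572, 9678 and X410) came from biopsies made, on average, 34 days later than the first visit to the seals. The 4 pre-molt libraries (labelled early molt, seals 5572, 5842, 6762 and C497) came from that first visit, at most 5 days after arrival. Only seal 5572 has a library at both times, and it enters both groups, so its libraries are not independent of each other. No treatment was given other than the sedation and local anesthesia for the biopsy, and the study kept for each group the samples with the most unique reads because some input RNA was of low quality.

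Creatine kinase moves phosphate between ATP and phosphocreatine, so that a working fiber can restore ATP faster than respiration or glycolysis alone would allow. Adenylate kinase joins a pair of ADP molecules into ATP and AMP. The AMP is then deaminated to IMP, and the purine nucleotide cycle returns IMP to AMP. In mammals creatine is made mostly in kidney and liver and taken up by muscle from the blood. Fast glycolytic fibers of rodents hold more CKM, AK1 and AMPD1 than slow fibers, whereas the mitochondrial kinase CKMT2 goes with oxidative capacity.

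All 3 creatine kinases, GAMT, AK1 and AMPD1 had lower mean levels in post-molt than in pre-molt muscle, with log2 fold changes of -1.30 to -0.44, while GATM and AMPD3 had higher means. None of these differences passed the test across all genes. Levels are in CPM, the read count of a gene relative to its library's size after scaling by TMM factors. Fold changes are log2 values of post-molt over pre-molt ± standard error (SE), and p comes from edgeR's quasi-likelihood test, with Benjamini-Hochberg adjustment over the 14315 genes. At an adjusted p under 0.05, edgeR called 0 of the 9 genes higher and 0 lower, against 0.217% higher and 0.133% lower over all genes tested (0.349% either way). With no adjustment, 1 of the 9 was higher and 6 were lower at p under 0.05, against 5.2% and 6.22% over all genes (11.4% either way). By sign alone 2 were higher and 7 lower, against 46.4% and 53.6% over all genes. DESeq2 called 0 of the 9 either way (3.35% higher, 3.16% lower and 6.51% either way among genes it gave an adjusted p), with adjusted p of 0.0801 or more, and limma-voom called 0 (0.384% higher and 0.272% lower). The median fold change of the 9 genes was -0.59, and that of all genes tested was -0.04. These genes were chosen with results of these data known, so the counts describe them and do not test them as a set.

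The count of 6 lower genes before adjustment depended on scaling and on single libraries. With libraries scaled by their totals alone, an alternative added after seeing the data, the fold changes of all genes moved by a median of 0.15, and 2 of the 9 genes were higher and 2 lower at p under 0.05 before adjustment. Over all genes, 1076 were then higher and 513 lower, against 744 and 890 in the main fit. With 1 library left out at a time, 1 to 6 of the 9 were lower, with 1 when pre-molt 5572, pre-molt 5842 or post-molt 4448 was left out. Over all genes, 672 to 886 were lower with 1 library left out, and 788, 672 and 737 in those named fits in turn. The count of the 9 genes was also 1 without both libraries of seal 5572 (679 over all genes), and 1 without pre-molt 5842 and post-molt 9678 (629 over all genes). That last pair mapped least well to the monk seal genome within their groups, according to the mapping summary published with the data.

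The libraries held 30774895 to 61229829 counts post-molt and 37905311 to 56150332 pre-molt. The 8 markers listed for skeletal muscle summed to 143988 to 209464 CPM post-molt and 155530 to 229086 CPM pre-molt, and edgeR called 0 of them, with 2 higher and 1 lower at p under 0.05 before adjustment (5.2% and 6.22% over all genes). These were the Z-disc gene MYOT (1.43 ± 0.32, adjusted p = 0.0737 in edgeR and 0.000833 in DESeq2), the myoglobin gene MB (0.67 ± 0.23, adjusted p = 0.248 in edgeR and 0.0278 in DESeq2) and the skeletal actin gene ACTA1 (-0.93 ± 0.25, adjusted p = 0.123 in edgeR and 0.00400 in DESeq2). MB and ACTA1 had the largest values on this list in every library, so the sums say little of the rest. TTN was at 1630 to 25275 CPM post-molt and 1152 to 28797 CPM pre-molt, lowest in the 2 libraries of seal 5572. NEB was at 955 to 6488 CPM post-molt and 645 to 5780 CPM pre-molt. The cause of this spread was not tested. In these bulk samples, fewer fibers of a type and less RNA per fiber cannot be told apart. Fast-fiber markers, 9 of 12 listed having a row, summed to 5088 to 7823 CPM post-molt and 9140 to 25311 CPM pre-molt, without overlap. Of the 9, edgeR called 0, with 5 lower and 0 higher at p under 0.05 before adjustment (6.22% and 5.2% over all genes). DESeq2 called MYBPC2 lower (adjusted p = 0.00697). Slow-fiber markers, 9 of 10, summed to 53158 to 76425 CPM post-molt and 44660 to 95519 CPM pre-molt, and edgeR called 1 higher, the calcium pump gene ATP2A2. The myosin heavy chain genes on these lists (MYH1, MYH2, MYH4 and MYH7) were not analysed here. The study, citing earlier work, describes fast fibers as nearly absent in adult NES. The sums are therefore not a measure of fiber content. In edgeR all 9 fast-fiber markers had negative fold changes, from -2.91 (TNNT3) to -0.65 (CASQ1). Their median was -1.41, against -0.04 over all genes tested. Their levels did not run together over the libraries, and the mean of their log2 CPM overlapped (6.36 to 7.58 post-molt and 5.81 to 9.55 pre-molt). The Z-disc gene ACTN3 held much of the sum, at 3453 to 4453 CPM post-molt and 3654 to 7642 CPM pre-molt. The fast troponin gene TNNI2 was at 28.9 to 219 CPM post-molt, against 6.28 CPM in pre-molt 5572, 5.61 CPM in 6762, 2471 CPM in 5842 and 1345 CPM in C497. TNNT3, TNNC2, MYLPF and ATP2A1 were, like TNNI2, higher in pre-molt 5842 and C497 than in pre-molt 5572 and 6762. Pre-molt 5572 and 6762, low in TNNI2, had the highest CKM of all libraries. Pre-molt C497, with the second highest fast-fiber sum (14191 CPM), had the lowest pre-molt CKM. Other markers differed: among pre-molt libraries ACTN3 ran in the order of CKM (7642 CPM in 5572, 7011 in 6762, 6240 in 5842, 3654 in C497). Among post-molt libraries it did not, with the most ACTN3 in 9678 (4453 CPM) and the most CKM in 5572 (27280 CPM). MYBPC2 was lowest of the pre-molt libraries in C497 (564 CPM, against 859 to 1451 CPM). The part of fiber type in the values of the 9 genes was not tested.

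CKM, which codes for the cytosolic muscle creatine kinase that sits partly on the M-band next to myosin, ranked 3 to 5 among all named genes by read count in each library. Reads of CKM made up 2.21 to 2.77% of a post-molt library and 2.5 to 4.67% of a pre-molt library. CKM was at 21811 CPM in post-molt 4448, 27280 in 5572, 21967 in 9678 and 22139 in X410, against 53292 in pre-molt 5572, 33051 in 5842, 35481 in 6762 and 23572 in C497. Of the pre-molt libraries, 3 lay above every post-molt library, and C497 lay within the post-molt range. CKM averaged 23299 ± 2657 CPM post-molt and 36349 ± 12409 CPM pre-molt (SD, n = 4 each), a fold change of -0.64 ± 0.25 (unadjusted p = 0.0244, adjusted p = 0.321, 95% interval -1.19 to -0.10). The spread among pre-molt seals was wider than among post-molt seals, with a coefficient of variation of 11.4% post-molt and 34.1% pre-molt. Without pre-molt 5572, the library with the highest value, the fold change was -0.40.

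**Figure D1:**
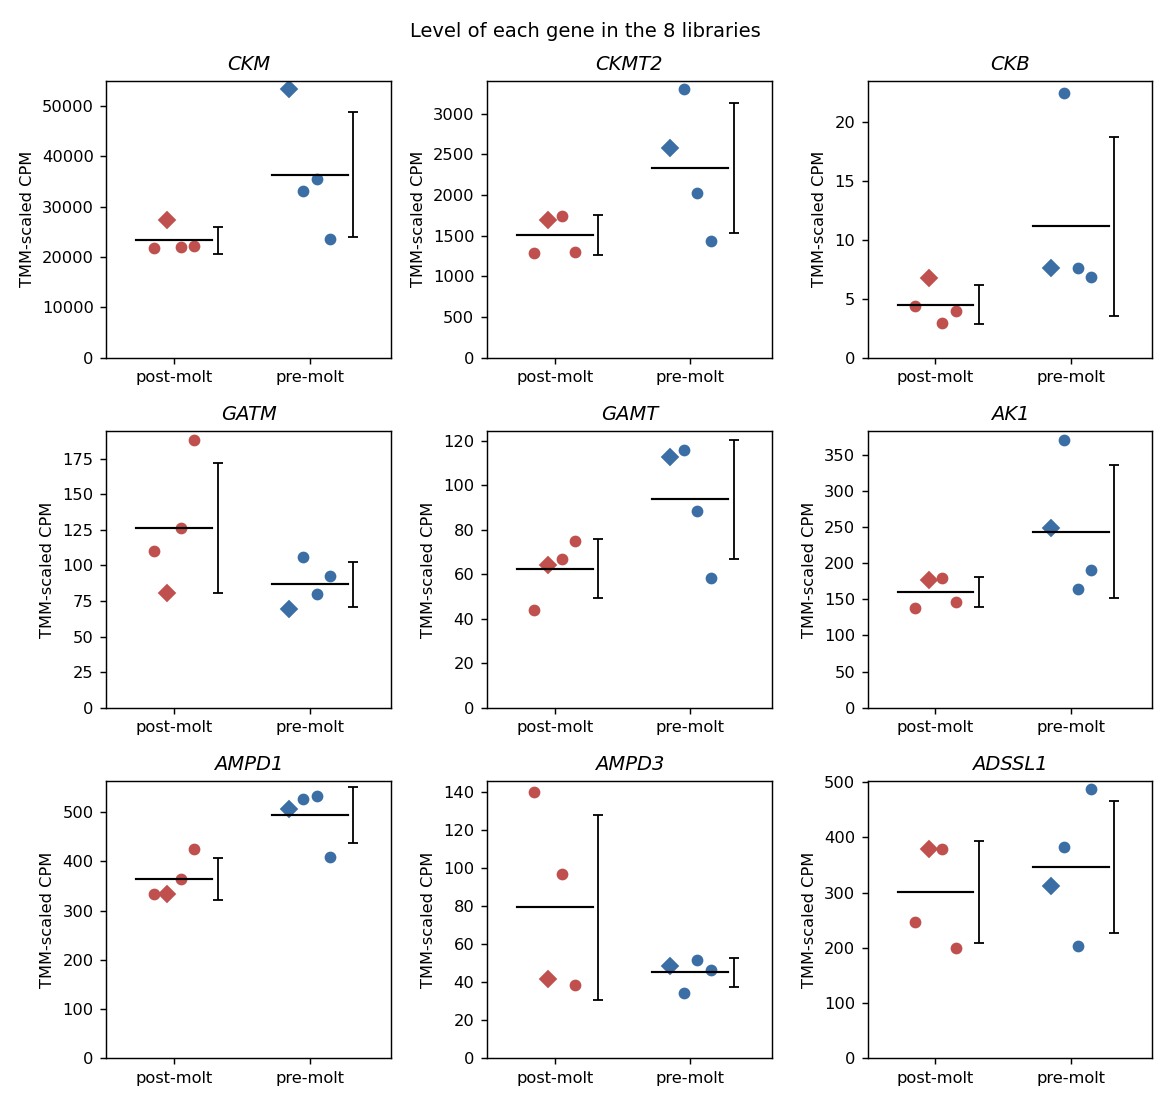
Level of each of the 9 genes in TMM-scaled CPM (vertical axis, from 0) in the 4 post-molt (red) and 4 pre-molt (blue) libraries; diamonds are seal 5572, horizontal lines are means and bars are SD. CKB is the 1 gene whose groups do not overlap, CKM spans 21811 to 27280 CPM post-molt and 23572 to 53292 CPM pre-molt, and AMPD3 has 2 post-molt libraries (139.9 and 96.8 CPM) above all others.

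CKMT2 codes for the sarcomeric mitochondrial creatine kinase, which sits between the mitochondrial membranes and turns exported ATP into phosphocreatine. Its level was 1290, 1693, 1739 and 1297 CPM in post-molt 4448, 5572, 9678 and X410, against 2576, 3302, 2022 and 1434 CPM in pre-molt 5572, 5842, 6762 and C497. As for CKM, 3 pre-molt libraries were above all post-molt libraries and C497 was among them. The mean was 1505 ± 245 CPM post-molt and 2333 ± 797 CPM pre-molt, and the fold change of -0.63 ± 0.26 did not pass (unadjusted p = 0.0304, adjusted p = 0.352, 95% interval -1.20 to -0.07). Without pre-molt 5842 it was -0.39.

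CKB, the brain-type cytosolic creatine kinase, is the main form in nerve and smooth muscle and a minor one in adult muscle fibers. It had only 92 to 304 reads in a post-molt library and 320 to 717 in a pre-molt library. Its level was 4.36, 6.78, 2.97 and 3.92 CPM in post-molt 4448, 5572, 9678 and X410, against 7.61, 22.5, 7.59 and 6.85 CPM in pre-molt 5572, 5842, 6762 and C497. CKB was the 1 gene of the 9 whose groups did not overlap, with every post-molt library lower, as in 5.11% of all genes tested (4.04% had every post-molt library higher, 9.16% either). The gap was narrow, 6.78 CPM in post-molt 5572 against 6.85 CPM in pre-molt C497, and pre-molt 5842 stood far above the other 7 libraries. The fold change was -1.30 ± 0.45 (unadjusted p = 0.0132, adjusted p = 0.248), the largest of the 9 in size. It was -0.68 without pre-molt 5842, and -0.53 without pre-molt 5842 and post-molt 9678.

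Markers of other cells that could carry CKB were summed in the same libraries. The 6 smooth muscle markers summed to 173 to 322 CPM post-molt and 170 to 301 CPM pre-molt, with 0 of 6 past an unadjusted p of 0.05. The 6 Schwann cell and nerve markers summed to 42.0 to 72.4 CPM post-molt and 75.0 to 105.9 CPM pre-molt, without overlap. Of the 4 tested, edgeR called 0, with 2 lower at p under 0.05 before adjustment (6.22% over all genes). DESeq2 called MBP lower (adjusted p = 0.0384). The 6 fibroblast markers summed to 169 to 443 CPM post-molt and 413 to 1355 CPM pre-molt. Of these, edgeR called 0, with 4 lower at p under 0.05 before adjustment (6.22% over all genes). DESeq2 called LUM (adjusted p = 0.00447) and COL1A2 (adjusted p = 0.0148) lower. Pre-molt 5842 was the library with the highest fibroblast sum (1355 CPM) and the highest fast-fiber sum (25311 CPM), and the lowest Schwann and nerve sum among pre-molt libraries (75.0 CPM). It also had the highest value of the 8 libraries in 4 of the 9 genes (CKMT2, CKB, GAMT and AK1). The part of these cells in the CKB values was not tested.

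The balance among the kinases was compared as a ratio of read counts within each library, which does not depend on library scaling. CKMT2 reads were 5.86 to 7.92% of CKM reads post-molt and 4.83 to 9.99% pre-molt. The log2 ratio averaged -3.96 ± 0.20 post-molt and -3.97 ± 0.45 pre-molt, a difference of 0.01 (two-sided exact permutation p = 1, n = 4 per group), and the post-molt range lay within the pre-molt range. The log2 ratio of CKB to CKM averaged -12.39 ± 0.37 post-molt and -11.81 ± 0.96 pre-molt, a difference of -0.59 (exact permutation p = 0.314, 0.471 adjusted over the 3 ratios compared). CKB reads were 0.0135 to 0.0248% of CKM reads post-molt and 0.0143 to 0.0680% pre-molt. The highest of these was again pre-molt 5842, and the difference was -0.16 without it and -0.0047 without pre-molt 5842 and post-molt 9678. The smallest p that 4 against 4 libraries allow is 0.0286. In all 8 libraries, reads of the 3 kinases together were mostly CKM, 92.7 to 94.5% post-molt and 90.9 to 95.4% pre-molt.

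**Figure D2:**
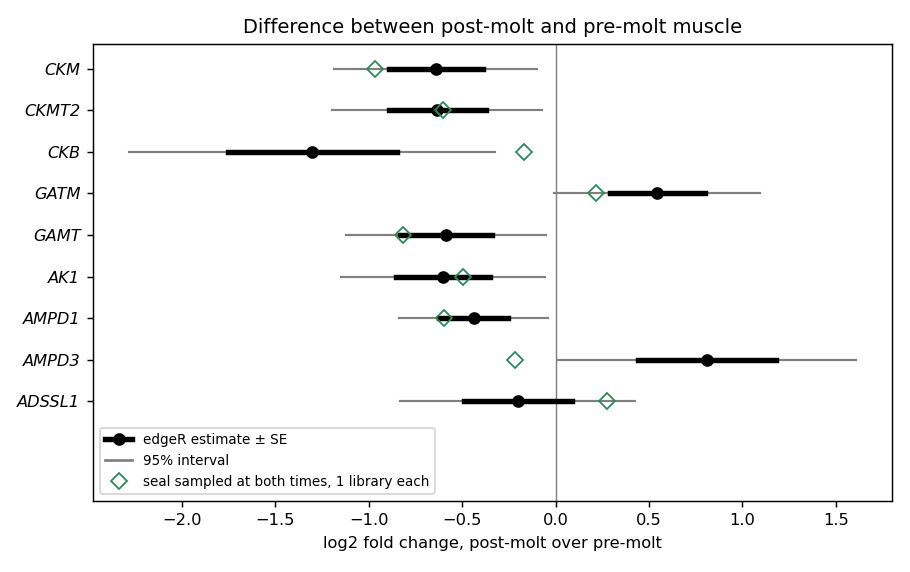
Log2 fold change, post-molt over pre-molt (horizontal axis), of the 9 genes: black points and thick bars are the edgeR estimate ± SE from 4 libraries per group, thin bars the 95% interval, and green diamonds the difference within seal 5572 (1 library per time). Estimates run from -1.30 (CKB) to 0.81 (AMPD3), and the diamonds of AMPD3 (-0.22) and ADSSL1 (0.28) lie on the other side of 0 from their estimates.

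Among the creatine supply genes, GATM and GAMT differed in opposite directions. GATM codes for the amidinotransferase of the first, rate-limiting step of creatine synthesis, which makes guanidinoacetate from arginine and glycine. GATM was at 110, 80.3, 126 and 188 CPM in post-molt 4448, 5572, 9678 and X410, against 69.1, 105.6, 79.6 and 92.3 CPM in pre-molt 5572, 5842, 6762 and C497. The 3 post-molt libraries other than 5572 lay above every pre-molt library. The mean was 126 ± 45.5 CPM post-molt and 86.6 ± 15.8 CPM pre-molt, a fold change of 0.54 ± 0.25 (unadjusted p = 0.0529, adjusted p = 0.443, 95% interval -0.01 to 1.10). Without post-molt X410 it was 0.29.

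GAMT codes for the methyltransferase that turns guanidinoacetate into creatine. It was at 43.9, 64.0, 67.0 and 75.0 CPM in post-molt 4448, 5572, 9678 and X410, against 112.7, 115.8, 88.4 and 58.1 CPM in pre-molt 5572, 5842, 6762 and C497. Pre-molt C497 lay within the post-molt range, and the other 3 pre-molt libraries lay above it. The mean was 62.5 ± 13.2 CPM post-molt and 93.8 ± 26.7 CPM pre-molt, and the fold change of -0.59 ± 0.25 did not pass (unadjusted p = 0.0348, adjusted p = 0.369).

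AK1, the cytosolic adenylate kinase of muscle, was at 138, 176, 180 and 146 CPM in post-molt 4448, 5572, 9678 and X410, against 248, 371, 165 and 190 CPM in pre-molt 5572, 5842, 6762 and C497. The groups overlapped through pre-molt 6762. The mean was 160 ± 21.0 CPM post-molt and 244 ± 91.9 CPM pre-molt, a fold change of -0.60 ± 0.25 (unadjusted p = 0.0325, adjusted p = 0.362), and without pre-molt 5842 it was -0.31.

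AMPD1, the AMP deaminase of skeletal muscle fibers, had the smallest coefficient of variation of the 9 genes pre-molt and, after CKM, the smallest post-molt. It was at 334, 334, 364 and 426 CPM in post-molt 4448, 5572, 9678 and X410, against 507, 528, 533 and 410 CPM in pre-molt 5572, 5842, 6762 and C497. A single crossing, post-molt X410 above pre-molt C497, kept the groups from being separate. The mean was 365 ± 43.0 CPM post-molt and 494 ± 57.5 CPM pre-molt, with coefficients of variation of 11.8% post-molt and 11.6% pre-molt. The fold change was -0.44 ± 0.18 (unadjusted p = 0.0338, adjusted p = 0.366, 95% interval -0.84 to -0.04). It stayed between -0.52 and -0.38 when any 1 library was left out, and it was -0.28 with libraries scaled by their totals alone. DESeq2 gave AMPD1 its lowest adjusted p of the 9 genes, 0.0801.

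AMPD3, the AMP deaminase form first known from erythrocytes and also made in muscle, was at 139.9, 41.7, 96.8 and 38.1 CPM in post-molt 4448, 5572, 9678 and X410, against 48.5, 34.1, 51.5 and 46.3 CPM in pre-molt 5572, 5842, 6762 and C497. The post-molt libraries split, with 4448 and 9678 above all pre-molt libraries and 5572 and X410 within their range. The mean was 79.1 ± 48.6 CPM post-molt and 45.1 ± 7.66 CPM pre-molt, a fold change of 0.81 ± 0.37 (unadjusted p = 0.0467, adjusted p = 0.425, 95% interval 0.01 to 1.61). Without post-molt 4448 it was 0.39. Of 10 erythroid markers listed, 5 had a row and 1 was tested, and the 5 summed to 0.674 to 3.44 CPM post-molt and 0 to 1.24 CPM pre-molt, near 0 in every library, although the hemoglobin genes on the list were not analysed here.

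The ratio of AMPD3 to AMPD1 reads described the same split without library scaling. AMPD3 reads were 41.8, 12.5, 26.6 and 8.95% of AMPD1 reads in post-molt 4448, 5572, 9678 and X410, against 9.58, 6.45, 9.66 and 11.3% in pre-molt 5572, 5842, 6762 and C497. Post-molt X410 was within the pre-molt range and the other 3 post-molt libraries were above it. The log2 ratio averaged -2.41 ± 1.01 post-molt and -3.46 ± 0.34 pre-molt, a difference of 1.05 (two-sided exact permutation p = 0.114, 0.343 adjusted over the 3 ratios, n = 4 per group). Without post-molt X410 the difference was 1.41 (exact permutation p = 0.0286, the smallest possible with 3 against 4 libraries), and without post-molt 4448 it was 0.67. Since X410 was the only post-molt library within the pre-molt range, leaving it out fixed that p, which therefore adds no support.

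**Figure D3:**
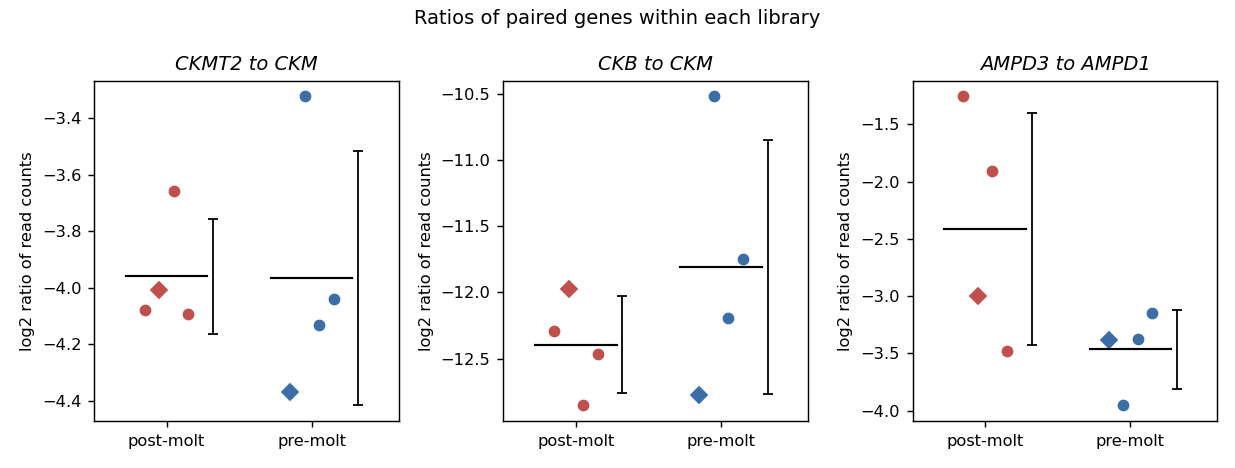
Log2 ratio of read counts within each library (vertical axes, not starting at 0) for CKMT2 to CKM, CKB to CKM and AMPD3 to AMPD1, in 4 post-molt (red) and 4 pre-molt (blue) libraries; diamonds are seal 5572, lines are means and bars are SD. The means of CKMT2 to CKM are level (-3.96 post-molt and -3.97 pre-molt), whereas AMPD3 to AMPD1 reaches -1.26 in post-molt 4448 and is at most -3.15 in pre-molt libraries.

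ADSSL1, the muscle adenylosuccinate synthase that starts the return of IMP to AMP, was at 247, 378, 379 and 200 CPM in post-molt 4448, 5572, 9678 and X410, against 313, 382, 204 and 487 CPM in pre-molt 5572, 5842, 6762 and C497. The groups overlapped over most of their range. The mean was 301 ± 91.7 CPM post-molt and 346 ± 119 CPM pre-molt, with a fold change of -0.20 ± 0.29 (unadjusted p = 0.496, adjusted p = 0.880). The 95% interval of -0.83 to 0.43 leaves room for a difference in either direction. Without pre-molt C497 the fold change was 0.010.

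Seal 5572 had a library from each time, and in it 7 of the 9 genes were lower and 2 higher post-molt, from 1 library per time and therefore with no replicate check. The log2 difference within this seal was -0.97 for CKM, -0.61 for CKMT2, -0.81 for GAMT, -0.60 for AMPD1 and -0.49 for AK1. CKB differed little (-0.17), and AMPD3 was lower (-0.22), opposite in direction to its group means. GATM (0.22) and ADSSL1 (0.28) were higher, and ADSSL1 was likewise opposite in direction to its group means. The post-molt library of this seal still held the most CKM of the post-molt group (27280 CPM), and its pre-molt library the most of all 8 (53292 CPM).

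Other genes of the pathway were read from lists on adenylate kinases, AMP and IMP handling, purine synthesis, mitochondrial exchange of nucleotides and phosphate, nucleoside diphosphate kinases and other creatine genes. Of 58 genes listed, 52 had a row and 45 were tested. edgeR called 0 higher and 0 lower, 3 were higher and 7 lower at p under 0.05 before adjustment (5.2% and 6.22% over all genes), and limma-voom called 0. DESeq2 called 1 higher and 3 lower of the 39 to which it gave an adjusted p, against 3.35% and 3.16% over all genes. The median fold change was -0.09, against -0.04 over all genes tested.

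Of 16 genes tested for AMP and IMP handling, 4 had positive and 12 negative fold changes (median -0.37). NT5C2, a cytosolic nucleotidase that prefers IMP and GMP, was at 77.8, 83.5, 109 and 77.6 CPM in post-molt 4448, 5572, 9678 and X410, against 41.8, 49.8, 34.5 and 60.8 CPM in pre-molt 5572, 5842, 6762 and C497, with no overlap. Its fold change was 0.90 ± 0.22 (edgeR adjusted p = 0.0844), and DESeq2 called it higher (adjusted p = 0.00519). ADSL, the lyase that follows ADSSL1 in the purine nucleotide cycle, was at 69.9, 78.2, 85.4 and 89.5 CPM in post-molt 4448, 5572, 9678 and X410, against 131, 141, 157 and 92.7 CPM in pre-molt 5572, 5842, 6762 and C497. Every post-molt library was lower, with a fold change of -0.69 ± 0.20 (edgeR adjusted p = 0.156, DESeq2 adjusted p = 0.0182). XDH, which codes for the xanthine dehydrogenase that makes uric acid, averaged 75.1 ± 19.2 CPM post-molt and 47.7 ± 4.75 CPM pre-molt (0.65 ± 0.21, edgeR adjusted p = 0.212).

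In the purine synthesis list, 10 genes were tested, 5 with positive and 5 with negative fold changes (median -0.02). IMPDH2, which commits IMP to GMP synthesis, averaged 233 ± 19.4 CPM post-molt and 377 ± 113 CPM pre-molt without overlap (-0.70 ± 0.22, edgeR adjusted p = 0.201, DESeq2 adjusted p = 0.0461). PRPS1, which makes the ribose phosphate donor of purine synthesis, averaged 67.9 ± 5.41 CPM post-molt and 49.2 ± 6.30 CPM pre-molt without overlap in the other direction (0.46 ± 0.18, edgeR adjusted p = 0.301). Its paralog PRPS2 averaged 10.9 ± 3.93 CPM post-molt and 15.03 ± 4.95 CPM pre-molt (-0.46 ± 0.34, edgeR adjusted p = 0.699).

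The 9 genes tested for mitochondrial exchange had a median of 0.01. SLC25A3, the phosphate carrier of the inner membrane, averaged 781 ± 101 CPM post-molt and 1376 ± 547 CPM pre-molt without overlap (-0.82 ± 0.26, edgeR adjusted p = 0.209, DESeq2 adjusted p = 0.0442). The outer-membrane channel genes VDAC2 (223 ± 41.1 CPM post-molt and 340 ± 76.6 CPM pre-molt, -0.61 ± 0.22, edgeR adjusted p = 0.262) and VDAC1 (305 ± 44.4 CPM post-molt and 414 ± 109 CPM pre-molt, -0.44 ± 0.22, edgeR adjusted p = 0.486) did not pass with either tool. The adenine nucleotide translocator SLC25A4, named after its values were seen because it exports the ATP that CKMT2 uses, averaged 2272 ± 260 CPM post-molt and 1864 ± 552 CPM pre-molt (0.29 ± 0.24, edgeR adjusted p = 0.747), so its estimate lay on the other side of 0 from that of CKMT2.

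**Figure D4:**
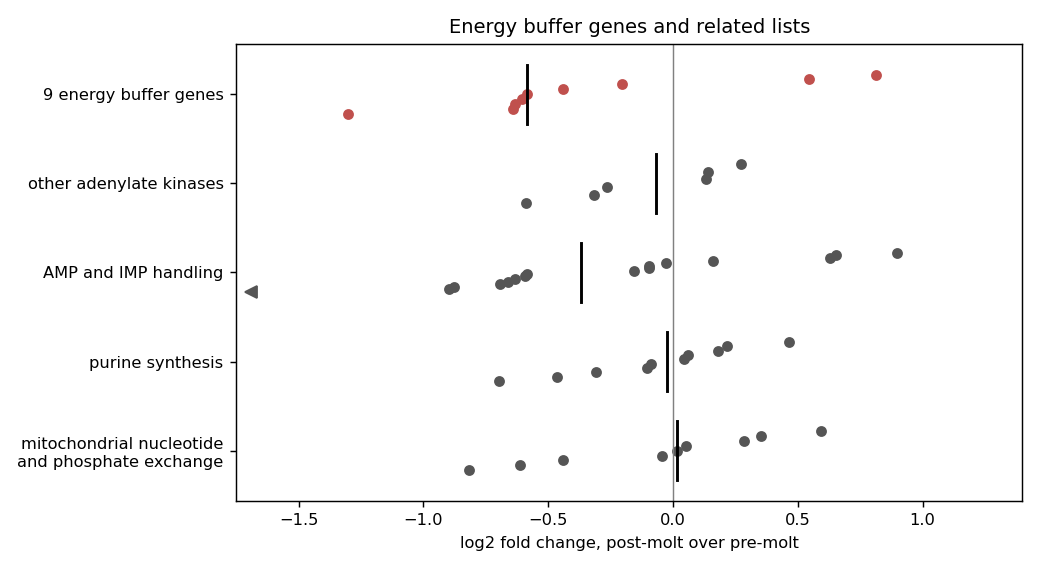
Log2 fold change, post-molt over pre-molt (horizontal axis), of the 9 energy buffer genes (red) and of the tested genes of 4 related lists (grey); each point is 1 gene and black lines are list medians. The median is -0.59 for the 9 genes and between -0.37 and 0.01 for the 4 lists; the arrow stands for 1 gene beyond the left edge, NT5M (-4.62, with a mean of 0.0694 CPM post-molt), named because its value lies outside the axis.

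Of the other adenylate kinases, 6 of 9 were tested, with 3 positive and 3 negative fold changes, and 0 had an unadjusted p under 0.05. The mitochondrial AK3 averaged 4.99 ± 2.09 CPM post-molt and 7.52 ± 2.56 CPM pre-molt (-0.59 ± 0.42, edgeR adjusted p = 0.685), the UMP-CMP kinase CMPK1 10.5 ± 2.76 CPM post-molt and 12.6 ± 1.91 CPM pre-molt (-0.26 ± 0.28, adjusted p = 0.826), and AK8 11.0 ± 3.84 CPM post-molt and 9.14 ± 3.30 CPM pre-molt (0.27 ± 0.37, adjusted p = 0.873). Of the nucleoside diphosphate kinases, 4 of 7 were tested at low levels, among them NME6 (14.3 ± 2.16 CPM post-molt and 12.4 ± 2.47 CPM pre-molt, 0.21 ± 0.25, adjusted p = 0.855), NME7 (2.74 ± 2.11 CPM post-molt and 2.17 ± 1.05 CPM pre-molt, 0.34 ± 0.72, adjusted p = 0.927) and NME3, which had at most 0.56 CPM in any library. NME1 and NME2 were not analysed here, so these values do not give the level of the family. CKMT1A, the ubiquitous mitochondrial creatine kinase, had 0 to 20 reads in post-molt and 0 to 31 reads in pre-molt libraries and was too low to test. The creatine transporter of another family, SLC16A12, had 0 reads in all 8 libraries.

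The genes whose levels ran closest to those of CKM, CKMT2 and AMPD1 over the 8 libraries were found by the Pearson correlation of log2 CPM among 6933 named genes with a mean of at least 10 CPM. The points share the group difference, the scaling and the sequencing depth of each library, and the correlations are a description. For CKM they were the ubiquitin ligase gene ZNRF1 (r of 0.97), the phosphatase gene PHOSPHO1 (0.95), BTBD6 (0.95), GRINA (0.92) and the peroxisomal thiolase gene ACAA1 (0.91). For CKMT2 they were the sialic acid synthase gene NANS (0.99), a glutamate tRNA (tRNA-Glu, 0.97), IDH3B of the citric acid cycle (0.97), ATP5D of the ATP synthase (0.96) and CUNH20orf27 (0.96). For AMPD1 they were CUNH1orf216 (0.99), CHAC1, which breaks down glutathione (0.97), ADSL (0.97), DTNBP1 (0.97) and KLHDC2 (0.96). All 15 had negative fold changes, from -1.59 (CHAC1, edgeR adjusted p = 0.0737) to -0.26 (IDH3B, adjusted p = 0.693), and edgeR called 0 of them. Over all genes tested, 53.6% had negative fold changes. The 15 were picked for likeness to genes with lower post-molt means, so their shared sign was largely set by the choice. CHAC1 was past the threshold in DESeq2 (adjusted p = 0.00219), without a filter on low counts and without pre-molt C497.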

How the data were processed

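The authors mapped their read pairs to a genome of the Hawaiian monk seal with STAR (NCBI annotation) and deposited raw read counts per gene, so reads of 1 seal species were counted on the genes of another. The strand column used is not given in the sources used here, so a gene and an antisense gene that overlaps it may share reads. The submitters' processing notes name bcl2fastq 2.20, R 3.4.3 and DESeq2 1.18.1.

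Of 24349 entries, 7 named no gene (0.0115 to 0.0153% of each library) and were left out. Genes were kept with filterByExpr (minimum count 10, minimum total count 15), scaled with TMM factors and compared with edgeR 4.0.16 (glmQLFit and glmQLFTest, R 4.3.3), with DESeq2 1.42.0 and limma 3.58.1 (voom) as alternatives. The SE is the size of the log2 fold change divided by the square root of F. The 95% interval uses the total degrees of freedom of the edgeR test, residual plus prior. Correlations used log2 CPM with a prior count of 2. No seal term was fitted. The scripts were tested on simulated data. No library was a copy of another (chi-square over degrees of freedom at least 105.4 in all 28 pairs).

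The members and lists were chosen with earlier results of these data known. Named genes were every member, the 3 genes of each list with the smallest p, and the 5 genes most correlated with CKM, CKMT2 and AMPD1. Within a group each library came from another seal, so p measures the spread between seals and libraries together, while seal 5572 is in both groups. No exon lengths were used, so ranks and ratios between genes are of read counts, which also depend on transcript length, and not of transcript levels. No sequences were used.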

Additional observations from a re-analysis of the deposited data

Results flagged for a closer look

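Of 24 groups of 4 libraries examined (9 genes and 3 ratios in each group), 2 held a library far from the other 3 by Dixon's criterion, and chance alone flags about 1 in 20. CKM in post-molt 5572 was at 27280 CPM, against 21811 to 22139 CPM in the other post-molt libraries. CKB in pre-molt 5842 was at 22.5 CPM, against 6.85 to 7.61 CPM in the other pre-molt libraries.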

How the results depend on the processing

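Each gene was refitted under 18 alternatives, and the fold changes of the 9 genes kept their sign in 161 of 162 fits and stayed above an adjusted p of 0.05 in all of them, the lowest adjusted p being 0.0801. The exception in sign was ADSSL1, which ranged from -0.39 without pre-molt 6762 to 0.010 without pre-molt C497. Over all genes, edgeR called 31 higher and 19 lower, DESeq2 335 and 316, limma-voom 55 and 39, edgeR without a filter on low counts 129 and 97, and edgeR with library totals alone 40 and 10, an alternative chosen after seeing the data. With 1 library left out at a time the counts were 7 to 28 higher and 2 to 21 lower, and leaving out seal 5572 altogether gave 3 and 2. Without pre-molt 5842 and post-molt 9678, edgeR called 0 higher and 0 lower, although 701 higher and 629 lower had p under 0.05 before adjustment and DESeq2 called 190 and 168. Among the pathway genes DESeq2 called 1 higher and 3 lower, and edgeR without a filter called 1 higher (NT5C2). The near-zero difference of the CKMT2 to CKM log2 ratio ranged from -0.13 to 0.22 with 1 library left out and was -0.11 without seal 5572. That of CKB to CKM ranged from -0.91 to -0.16 with 1 library left out, was -1.05 without seal 5572 and -0.0047 without pre-molt 5842 and post-molt 9678, and that of AMPD3 to AMPD1 from 0.67 to 1.41. The fold change of NME7 ranged from -0.36 without post-molt 9678 to 0.63 without pre-molt 5842, and was -0.058 without both. The causes of these changes were not tested. CKB had the fewest reads of the 9 genes (92 in post-molt 9678). No paired analysis was possible because the groups share 1 seal only.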
